A study of Homo sapiens with 9 samples.

Results

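The 44 genes described here act in the G2 phase of the cell cycle, in mitosis and in cytokinesis. They were chosen by name, and each name matched 1 of the 27421 rows of the deposited expression table. Their RNA was measured by poly(A)-selected, strand-specific sequencing in Huh7, a human hepatocellular carcinoma cell line, in 9 libraries that form 3 groups of 3. The first group is labelled control, and the labels do not say what those cells received. The other groups are labelled shzmat2-1 and shzmat2-2, the usual form of name for short hairpin RNAs against ZMAT2, and are written here shZMAT2-1 and shZMAT2-2. The product of ZMAT2 is a spliceosome protein with a zinc finger, and the study asked whether it acts on this cancer through splicing. The labels name no other treatment, vector, selection, clone or time for any group. Whether replicates are separate cultures is not stated, and p-values here reflect only the spread among these 9 libraries, which may be technical.

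Dividing cells switch on a shared set of genes late in the cycle. B-Myb (the product of MYBL2) joins the MuvB complex to activate them, FOXM1 follows, and in resting cells the DREAM complex represses the same genes. The products then act in sequence: CDK1 with cyclin B starts mitosis, Polo-like and Aurora kinases build the spindle, kinetochores attach chromosomes to it, and a checkpoint holds back the anaphase-promoting complex until attachment is complete. These transcripts are widely used as a proliferation signature in liver cancer. In bulk RNA, fewer cells in G2 and mitosis and less RNA per cell cannot be told apart.

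The B-Myb and DREAM complexes bind a promoter element called the cell cycle homology region (CHR), whose core reads TTTGAA, and NF-Y binds CCAAT boxes near it. RefSeq promoters (GRCh38.p14, 250 bases before to 50 after each gene start) were found for 37 of the 44 genes, as 47 windows of 300 bases. AURKA, BIRC5, BUB3, FOXM1, TPX2, TTK and UBE2C had no entry. Both strands were searched for both motifs, which can share at most 1 base. TTTGAA occurred in 29 of the 47 windows (61.7%), against 15.2% of all 35116 promoters in the table. CCAAT occurred in 35 windows (74.5%), against 34.6%. Both motifs occurred together in 24 windows (51.1%), against 5.90% of all promoters. In 150 promoters of other G2/M and mitosis genes the pair occurred in 19.3%, and in 51 promoters of G1/S and DNA replication genes in 3.92%. A match is a description of the sequence and not evidence of binding.

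4 promoters that hold both motifs are printed for genes whose levels are given in full further on: the kinases CDK1 and PLK1, the kinetochore subunit SPC25 and the motor KIF23. Each line gives 130 bases of the gene's own strand, 5′ to 3′, from 120 before to 10 after the gene start, with both motifs in capitals on either strand (ATTGG is CCAAT read from the other strand). The CDK1 window is chr10:60778358-60778487 on the plus strand, PLK1 is chr16:23678769-23678898 on the plus strand, SPC25 is chr2:168890421-168890550 on the minus strand and KIF23 is chr15:69414229-69414358 on the plus strand.
CDK1: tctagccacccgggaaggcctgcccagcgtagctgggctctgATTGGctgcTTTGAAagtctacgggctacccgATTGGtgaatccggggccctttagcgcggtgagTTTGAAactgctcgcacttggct
PLK1: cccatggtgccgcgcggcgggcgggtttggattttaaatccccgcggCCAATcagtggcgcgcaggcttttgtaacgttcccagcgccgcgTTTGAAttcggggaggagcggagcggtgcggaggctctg
SPC25: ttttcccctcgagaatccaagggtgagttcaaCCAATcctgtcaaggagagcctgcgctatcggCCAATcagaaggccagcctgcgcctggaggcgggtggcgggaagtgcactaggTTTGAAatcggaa
KIF23: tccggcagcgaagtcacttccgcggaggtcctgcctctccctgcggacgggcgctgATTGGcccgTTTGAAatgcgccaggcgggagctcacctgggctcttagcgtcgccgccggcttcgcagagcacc
CDK1 held 2 copies of TTTGAA, the first at -69 counted from the gene start. PLK1 held 1 copy at -29, SPC25 at -3 and KIF23 at -55. Over all 47 windows the matches gathered close to the gene start: 51.1% had a CCAAT box between -75 and -51, and 21.3% had TTTGAA between -25 and -1.

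**Figure D1:**
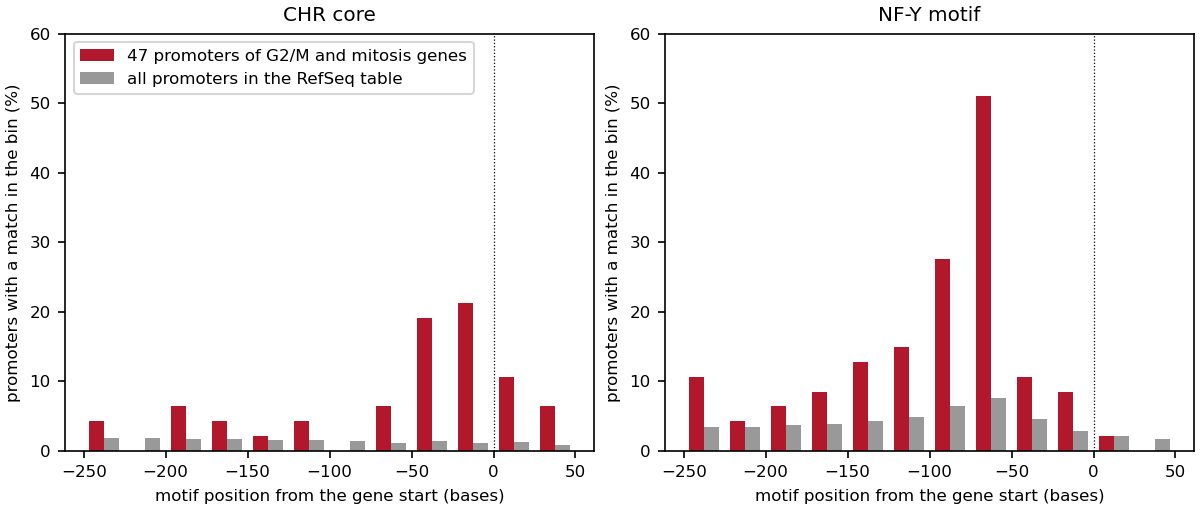
Share of promoters (y axis, percent) with a match to the CHR core (left) or the NF-Y motif (right) in each bin of 25 bases, by position from the gene start (x axis, bases). Red bars are the 47 promoters of the G2/M and mitosis genes and grey bars all 35116 promoters of the RefSeq table; the tallest red bar is 51.1% for the NF-Y motif.

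The libraries held 18430000 to 23740000 fragments. Levels are in FPKM (fragments per kilobase of exon, relative to depth), in which 3 fragments per kilobase equal 0.126 to 0.163. One library of each group stood apart in the share of its fragments from the 13 mitochondrially encoded genes: 43.2% in control replicate 2 against 7.86% and 8.28% in the other controls, 16.4% in shZMAT2-1 replicate 2 against 8.25% and 7.70%, and 27.0% in shZMAT2-2 replicate 1 against 14.5% and 16.6%. ZMAT2 itself measured 37.5, 32.8 and 39.2 FPKM in the controls, 15.2, 12.8 and 13.2 in shZMAT2-1 and 22.1, 20.3 and 20.8 in shZMAT2-2, so every knockdown library lay below every control (exact two-sided permutation p = 0.0119, the smallest that 84 assignments allow). By limma, the test used below, its log2 estimates were -1.35 in shZMAT2-1 (adjusted p = 0.0283) and -0.76 in shZMAT2-2 (adjusted p = 0.113). For the mean of both knockdown arms the estimate was -1.06 (adjusted p = 0.0144 by limma). At the threshold of 0.05 used below, ZMAT2 was thus not called in shZMAT2-2. Of 8 hepatocyte and hepatoma markers all exceeded 1 FPKM, with ALB at 1333 to 2571. The leukocyte marker PTPRC reached at most 0.0236 FPKM and CD3E 0.0493, while LYZ stood at 43.6 to 130.7. CD14 stood at 2.47 to 8.74, and the other 2 of 6 leukocyte markers stayed under 1 FPKM in every library. Of 7 fibroblast markers COL1A2 reached 2.31 FPKM and PDGFRB 1.57, and the other 5 stayed under 1 FPKM, with DCN and THY1 at 0 in 8 of 9 libraries. Of 4 endothelial markers in the table PECAM1 stood at 0.66 to 1.70 FPKM, and the other 3 stayed under 1 FPKM.

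In Huh7 the G2/M and mitosis genes were well expressed. The tests used genes that reached 1 FPKM in 3 or more libraries, which kept 42 of the 44 genes and 11245 genes in all. All 42 lay above the median of the tested genes. Their median control level was 27.5 FPKM, against 5.38 for all tested genes. The highest was TPX2, which activates Aurora A on the spindle, at 155 ± 7.80 FPKM (SD, n = 3), followed by MYBL2 at 120.1 ± 7.39, the CDK1-binding protein CKS2 at 112 ± 63.5 and the ubiquitin-conjugating enzyme UBE2C at 102 ± 28.3. TPX2 did not overlap MYBL2 in the controls, while CKS2 overlapped TPX2, MYBL2 and UBE2C, and UBE2C overlapped MYBL2. The lowest of the tested genes was the phosphatase CDC25C at 6.26 ± 2.12, with NUF2 next at 6.63 ± 1.43; their ranges overlapped.

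No gene of the set passed the test in either arm. With limma on log2(FPKM + 1) and Benjamini-Hochberg adjustment over all tested genes, 0 of 42 were called at an adjusted p under 0.05 in shZMAT2-1 against control, where 0.08% of all tested genes were called. In shZMAT2-2 against control 0 of 42 were called, with 0.587% of all genes called, and for the mean of both arms 0 of 42, with 0.542% called. Leaving out 1 library moved these shares of all genes to between 0% and 0.232%, 0% and 2.35%, and 0% and 1.28%, each highest without control replicate 2, while the set kept 0 calls. At an unadjusted p under 0.05 the set gave 0, 0 and 1 gene in these comparisons (MYBL2 in the last), against 5.76%, 7% and 6.93% of all genes. The arms share their control libraries, so their estimates are not independent.

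The estimates were mostly small and positive, and close to those of all genes. In shZMAT2-1, 32 of 42 genes were estimated higher than control, with a median log2 difference of 0.25; over all tested genes 72.9% were higher and the median was 0.16. In shZMAT2-2, 30 of 42 were higher with a median of 0.14, against 58.4% and 0.05 over all genes. For the mean of both arms 37 of 42 were higher with a median of 0.17, against 71.8% and 0.10. These medians turned negative without control replicate 2, the library with 43.2% mitochondrial fragments: -0.04 in shZMAT2-1, -0.11 in shZMAT2-2 and -0.072 for the mean, beside -0.053, -0.15 and -0.11 for all genes. Scaled to nuclear genes only, the medians were 0.077, 0.11 and 0.065, with 25, 29 and 30 of 42 genes higher, beside 0.012, 0.025 and 0.0097 for all genes; under quantile normalization the shZMAT2-1 median was -0.0062 with 20 of 42 higher. The standard errors of the arm estimates ran from 0.18 for SPC25 to 0.52 for CKS2 on the log2 scale. Fold changes on this scale understate the change of low genes. A filter of 5 FPKM kept the same 42 genes and 6576 in all. Of those 6576, 79.0% were higher in shZMAT2-1, 58.3% in shZMAT2-2 and 77.3% for the mean, with medians of 0.22, 0.050 and 0.12. In shZMAT2-1 the share of the set that was higher, 76.2%, lay below that of these genes.

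**Figure D2:**
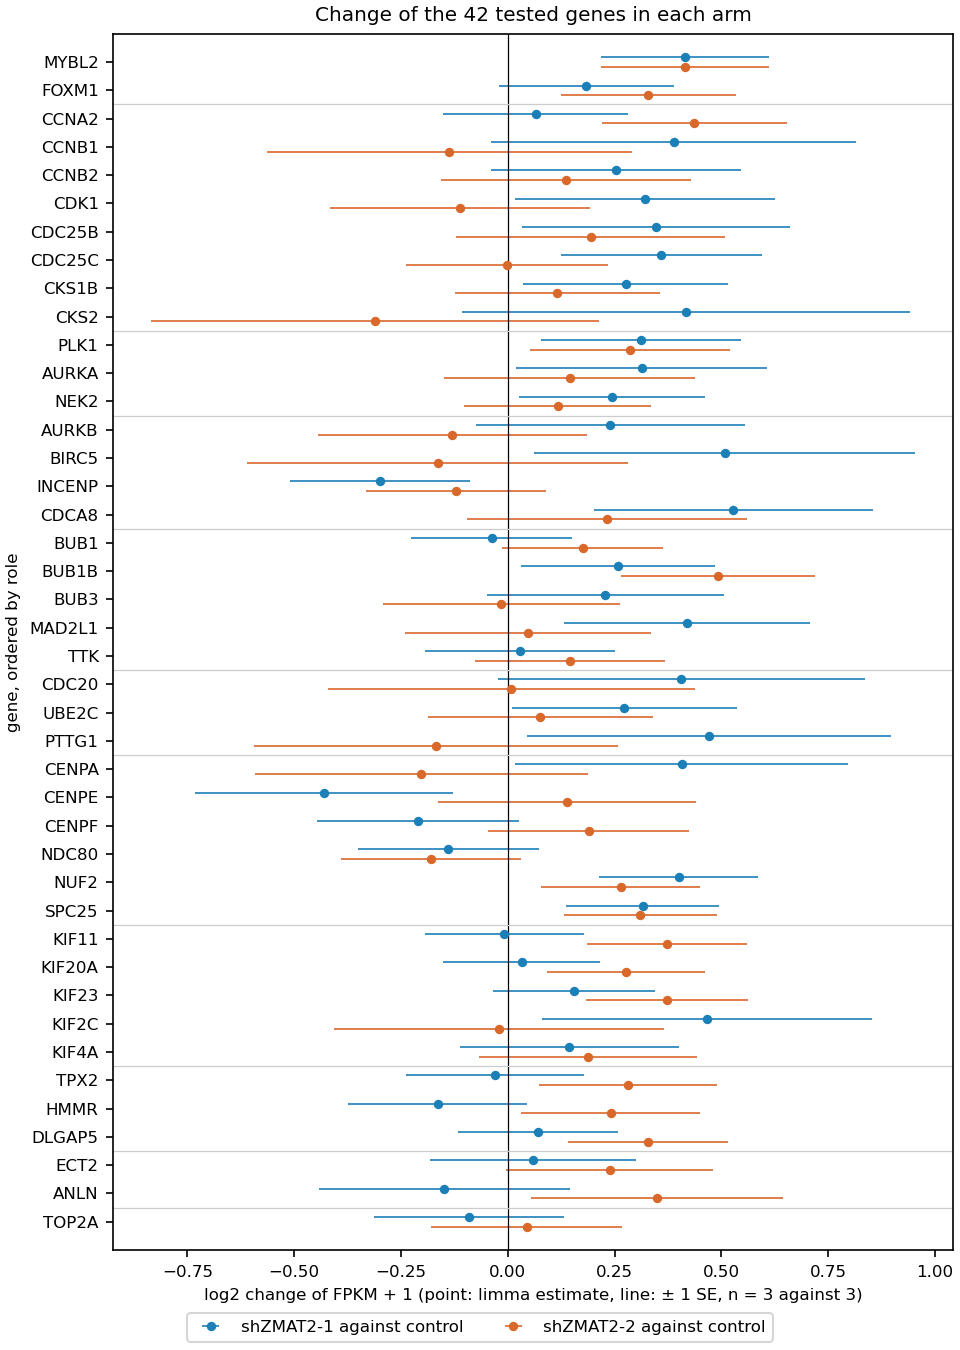
Log2 difference of FPKM + 1 from control (x axis) for the 42 tested genes (y axis, grouped by role), with shZMAT2-1 in blue and shZMAT2-2 in orange; points are limma estimates and lines ± 1 SE from 3 against 3 libraries. Most points lie right of 0 by less than 0.5, and no estimate passed an adjusted p of 0.05.

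MYBL2 had the smallest p of the 42 genes for the mean of both arms. It measured 126, 112 and 123 FPKM in control replicates 1 to 3, 168, 157 and 156 in shZMAT2-1 and 154, 152 and 175 in shZMAT2-2. All 6 knockdown libraries lay above the highest control. The estimates were 0.42 ± 0.20 (SE) in shZMAT2-1 and 0.41 ± 0.20 (SE) in shZMAT2-2 (adjusted p = 0.805 and 0.761 by limma), and 0.41 ± 0.17 (SE) for the mean of both arms (adjusted p = 0.631 by limma). Without control replicate 2 the last was 0.36. FOXM1, the forkhead factor that acts after B-Myb, measured 39.8, 33.8 and 41.1 FPKM in control replicates 1 to 3, 38.6, 53.003 and 39.99 in shZMAT2-1 and 43.1, 49.6 and 52.2 in shZMAT2-2. All 3 shZMAT2-2 libraries lay above the controls, and shZMAT2-1 overlapped both other groups. Control replicate 2 was the lowest library and shZMAT2-1 replicate 2 the highest. The estimates were 0.18 ± 0.20 (SE) in shZMAT2-1 and 0.33 ± 0.20 (SE) in shZMAT2-2 (adjusted p = 0.805 and 0.954 by limma).

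In FPKM, only 2 of the 42 genes, MYBL2 and SPC25, had 6 knockdown libraries that did not overlap the 3 controls, and both were higher. Over all tested genes 5.37% did not overlap, and 4.69% did not overlap and were higher. In TPM (FPKM divided by their sum over each library) 0 of the 42 did not overlap. Scaled to nuclear genes or by median of ratios, MYBL2 and SPC25 each overlapped. These scalings divide control replicate 2 by 0.681 and 0.652, which lifts it above some shZMAT2-1 libraries for both genes. Where a single arm is said above or below to lie apart from the controls, this holds in FPKM, and no share over all genes was computed. Scaled to nuclear genes, shZMAT2-2 overlapped the controls for FOXM1, CCNA2, KIF11, KIF23, DLGAP5 and HMMR. PLK1 and NUF2 in shZMAT2-1 and BUB1B in shZMAT2-2 stayed apart from the controls under that scaling. Most such genes were named for a small p in that arm, so their separation is not an independent finding. SPC25, a subunit of the NDC80 complex that binds microtubules at the kinetochore, measured 16.002, 12.5 and 16.9 FPKM in control replicates 1 to 3, 20.3, 17.4 and 19.2 in shZMAT2-1 and 19.01, 18.9 and 18.6 in shZMAT2-2. The lowest knockdown library exceeded the highest control by a small margin. Its estimates were 0.32 ± 0.18 (SE) in shZMAT2-1 and 0.31 ± 0.18 (SE) in shZMAT2-2 (adjusted p = 0.805 and 0.912 by limma), and that of the mean of both arms was 0.31 with control replicate 2 and 0.19 without it.

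The switch into mitosis was represented by 8 genes: cyclins CCNA2, CCNB1 and CCNB2, the kinase CDK1, the phosphatases CDC25B and CDC25C that activate it, and CKS1B and CKS2 that bind it. All 8 were estimated higher than control in shZMAT2-1 (0.065 to 0.42 on the log2 scale), and 4 of 8 in shZMAT2-2, with none called; in shZMAT2-1 the count was 7 scaled to nuclear genes or by median of ratios, 6 under quantile normalization, and 2 without control replicate 2, where it was 1 in shZMAT2-2. CDK1 measured 30.7, 15.01 and 34.1 FPKM in control replicates 1 to 3, 36.3, 23.7 and 36.7 in shZMAT2-1 and 22.2, 23.9 and 23.4 in shZMAT2-2. The lowest library of all was control replicate 2, and the 3 shZMAT2-2 libraries lay below the other controls. Its estimates were 0.32 ± 0.30 (SE) in shZMAT2-1 and -0.11 ± 0.30 (SE) in shZMAT2-2 (adjusted p = 0.805 and 1.00 by limma).

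CCNB1, the cyclin that drives CDK1 in mitosis, measured 98.2, 30.9 and 96.8 FPKM in control replicates 1 to 3, 104, 63.8 and 101 in shZMAT2-1 and 47.5, 63.5 and 73.3 in shZMAT2-2. Control replicates 1 and 3 were close to shZMAT2-1 replicates 1 and 3, while the replicate 2 libraries of both groups were lower. The estimates were 0.39 ± 0.43 (SE) in shZMAT2-1 and -0.14 ± 0.43 (SE) in shZMAT2-2 (adjusted p = 0.805 and 1.00 by limma). CCNA2, the cyclin of S and G2 phase, measured 45.3, 37.8 and 43.9 FPKM in control replicates 1 to 3, 37.3, 56.6 and 40.9 in shZMAT2-1 and 59.9, 61.7 and 51.4 in shZMAT2-2. Here shZMAT2-2 lay above all 3 controls and shZMAT2-1 on both sides of them. Its shZMAT2-2 estimate was 0.44 ± 0.22 (SE, adjusted p = 0.807 by limma). CDC25C measured 7.32, 3.82 and 7.64 FPKM in control replicates 1 to 3, 8.65, 7.54 and 7.87 in shZMAT2-1 and 5.04, 6.38 and 6.75 in shZMAT2-2, and the groups overlapped. Its estimates were 0.36 ± 0.24 (SE) in shZMAT2-1 and -0.0018 ± 0.24 (SE) in shZMAT2-2 (adjusted p = 0.805 and 1.00 by limma).

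**Figure D3:**
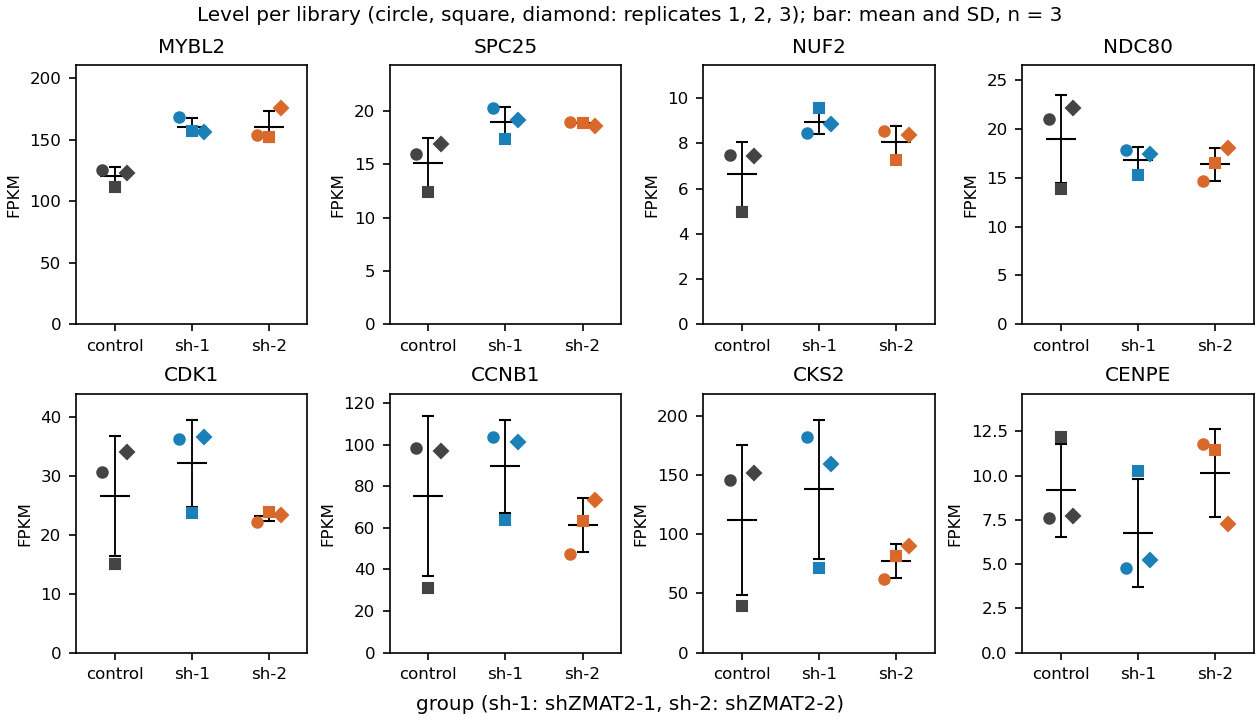
Level in FPKM (y axis) of 8 genes in the 9 libraries by group (x axis), with circles, squares and diamonds for replicates 1, 2 and 3, and bars for the mean and SD of 3 libraries. MYBL2 and SPC25 show no overlap between knockdown and control, while CDK1, CCNB1 and CKS2 are lowest in control replicate 2 and CENPE is highest there.

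Among the mitotic kinases PLK1, AURKA and NEK2, all 3 estimates were positive in each arm under FPKM and the 4 other scalings tried, and without control replicate 2 only PLK1 was. PLK1, which controls centrosomes, kinetochores and cytokinesis, measured 33.2, 20.7 and 35.6 FPKM in control replicates 1 to 3, 36.6, 36.1 and 36.1 in shZMAT2-1 and 30.7, 35.9 and 40.9 in shZMAT2-2. The 3 shZMAT2-1 libraries were nearly equal and all above the controls; shZMAT2-2 overlapped them. Its estimates were 0.31 ± 0.23 (SE) in shZMAT2-1 and 0.29 ± 0.23 (SE) in shZMAT2-2 (adjusted p = 0.805 and 1.00 by limma). Without control replicate 2 the mean of both arms was 0.063, against 0.30 with it.

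The chromosomal passenger complex joins the kinase Aurora B (AURKB) with INCENP, survivin (BIRC5) and borealin (CDCA8) at the inner centromere. AURKB measured 105, 52.7 and 110.3 FPKM in control replicates 1 to 3, 119, 77.7 and 110.0 in shZMAT2-1 and 66.04, 77.5 and 91.2 in shZMAT2-2. All 3 shZMAT2-2 libraries lay below control replicates 1 and 3 and above replicate 2. Its estimates were 0.24 ± 0.32 (SE) in shZMAT2-1 and -0.13 ± 0.32 (SE) in shZMAT2-2 (adjusted p = 0.812 and 1.00 by limma). CDCA8 measured 39.2, 16.3 and 41.9 FPKM in control replicates 1 to 3, 44.3, 40.8 and 46.4 in shZMAT2-1 and 29.1, 38.9 and 39.4 in shZMAT2-2. Its lowest library was control replicate 2, and the groups overlapped. Its shZMAT2-1 estimate, 0.53 ± 0.33 (SE), was the highest of the 42 genes in that arm and did not pass the test (adjusted p = 0.805 by limma). BIRC5 had estimates of 0.51 and -0.16 in the arms, and INCENP, the scaffold, was the only subunit with negative estimates in both (-0.30 and -0.12), also under 3 of the 4 other scalings; under quantile normalization AURKB was negative in both too, and without control replicate 2 AURKB and BIRC5 were.

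The spindle assembly checkpoint was represented by BUB1, BUB1B, BUB3, MAD2L1 and TTK. BUB1B, whose product BubR1 inhibits the anaphase-promoting complex, measured 25.7, 18.6 and 27.05 FPKM in control replicates 1 to 3, 24.1, 35.8 and 26.1 in shZMAT2-1 and 32.1, 38.3 and 30.5 in shZMAT2-2. All 3 shZMAT2-2 libraries exceeded the controls, and shZMAT2-1 did so in replicate 2 only. Its shZMAT2-2 estimate of 0.49 ± 0.23 (SE) was the highest of the 42 genes in that arm (adjusted p = 0.740 by limma). MAD2L1, whose product Mad2 binds CDC20 while kinetochores are unattached, measured 16.5, 6.93 and 15.7 FPKM in control replicates 1 to 3, 17.1, 15.3 and 17.8 in shZMAT2-1 and 11.2, 14.4 and 12.5 in shZMAT2-2. Control replicate 2 was the lowest library. Its estimates were 0.42 ± 0.29 (SE) in shZMAT2-1 and 0.047 ± 0.29 (SE) in shZMAT2-2 (adjusted p = 0.805 and 1.00 by limma). BUB1, BUB3 and TTK had estimates between -0.038 and 0.23. CDC20 and UBE2C, which help the anaphase-promoting complex act, and securin (PTTG1), which it destroys, had estimates of 0.27 to 0.47 in shZMAT2-1 and of -0.17 to 0.076 in shZMAT2-2. Without control replicate 2, 1 of these 3 (UBE2C) was positive in shZMAT2-1 and 0 in shZMAT2-2.

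Of the centromere and kinetochore genes, CENPE and CENPF had estimates of opposite sign in the arms, except that CENPF was positive in both in TPM. CENPE, a kinesin that moves chromosomes to the spindle equator, measured 7.61, 12.2 and 7.70 FPKM in control replicates 1 to 3, 4.77, 10.3 and 5.21 in shZMAT2-1 and 11.8, 11.4 and 7.28 in shZMAT2-2. It was highest in control replicate 2, the opposite of CDK1 and CCNB1. Its estimates were -0.43 ± 0.30 (SE) in shZMAT2-1 and 0.14 ± 0.30 (SE) in shZMAT2-2 (adjusted p = 0.805 and 1.00 by limma). CENPF, a kinetochore protein that binds microtubules, measured 19.3, 20.1 and 18.97 FPKM in control replicates 1 to 3, 12.98, 23.6 and 15.04 in shZMAT2-1 and 23.6, 25.3 and 18.6 in shZMAT2-2. The controls were tightly grouped within the range of either arm. Its estimates were -0.21 ± 0.24 (SE) in shZMAT2-1 and 0.19 ± 0.24 (SE) in shZMAT2-2 (adjusted p = 0.805 and 1.00 by limma).

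NUF2, which pairs with NDC80 in the microtubule-binding end of that complex, measured 7.50, 4.98 and 7.42 FPKM in control replicates 1 to 3, 8.44, 9.55 and 8.87 in shZMAT2-1 and 8.56, 7.25 and 8.38 in shZMAT2-2. The shZMAT2-1 libraries all exceeded the controls, and shZMAT2-2 replicate 2 lay within them. Its estimates were 0.40 ± 0.19 (SE) in shZMAT2-1 and 0.26 ± 0.19 (SE) in shZMAT2-2 (adjusted p = 0.805 and 0.996 by limma), and the mean of both arms changed from 0.33 to 0.17 without control replicate 2. NDC80 itself had negative estimates in both arms (-0.14 and -0.18), except in TPM, where that of shZMAT2-1 was positive. CENPA, the histone variant that marks centromeres, had estimates of 0.41 and -0.20.

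The kinesin motors KIF11, KIF20A, KIF23, KIF2C and KIF4A were estimated higher in shZMAT2-2, except KIF2C at -0.022 and, without control replicate 2, KIF4A. In shZMAT2-1, 4 of 5 were estimated higher, but 1 of 5 scaled to nuclear genes, by median of ratios or under quantile normalization. KIF11, the motor that pushes spindle poles apart, measured 15.4, 14.6 and 16.1 FPKM in control replicates 1 to 3, 12.9, 18.7 and 14.7 in shZMAT2-1 and 21.6, 20.8 and 18.3 in shZMAT2-2. All 3 shZMAT2-2 libraries exceeded the controls, and shZMAT2-1 lay on both sides of them. Its estimates were -0.0079 ± 0.19 (SE) in shZMAT2-1 and 0.37 ± 0.19 (SE) in shZMAT2-2 (adjusted p = 0.989 and 0.819 by limma). KIF23, a motor of the central spindle in cytokinesis, measured 18.9, 15.8 and 19.1 FPKM in control replicates 1 to 3, 17.3, 24.5 and 18.9 in shZMAT2-1 and 23.8, 23.9 and 22.6 in shZMAT2-2. Again shZMAT2-2 lay above all controls. Its estimates were 0.15 ± 0.19 (SE) in shZMAT2-1 and 0.37 ± 0.19 (SE) in shZMAT2-2 (adjusted p = 0.806 and 0.830 by limma).

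Of the spindle-binding proteins, DLGAP5, which stabilises spindle fibres, measured 26.5, 21.02 and 26.6 FPKM in control replicates 1 to 3, 23.5, 29.6 and 24.8 in shZMAT2-1 and 32.9, 31.1 and 29.4 in shZMAT2-2. The shZMAT2-2 libraries exceeded the controls, and shZMAT2-1 overlapped them. Its estimates were 0.071 ± 0.19 (SE) in shZMAT2-1 and 0.33 ± 0.19 (SE) in shZMAT2-2 (adjusted p = 0.891 and 0.912 by limma). HMMR, a spindle pole protein and hyaluronan receptor, measured 13.6, 16.02 and 14.3 FPKM in control replicates 1 to 3, 10.7, 17.5 and 11.6 in shZMAT2-1 and 19.2, 17.1 and 16.2 in shZMAT2-2. The controls lay between shZMAT2-1 replicates 1 and 3 and the shZMAT2-2 libraries. Its estimates were -0.16 ± 0.21 (SE) in shZMAT2-1 and 0.24 ± 0.21 (SE) in shZMAT2-2 (adjusted p = 0.807 and 1.00 by limma). ANLN, the anillin of the contractile ring, measured 36.97, 47.6 and 34.3 FPKM in control replicates 1 to 3, 26.5, 54.1 and 30.6 in shZMAT2-1 and 58.1, 56.1 and 38.9 in shZMAT2-2. The groups overlapped, and control replicate 2 was the highest control. Its estimates were -0.15 ± 0.29 (SE) in shZMAT2-1 and 0.35 ± 0.29 (SE) in shZMAT2-2 (adjusted p = 0.859 and 1.00 by limma). ECT2, a regulator of cytokinesis, and TOP2A, the topoisomerase that untangles chromosomes, had estimates between -0.091 and 0.24.

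PRC1, which bundles the central spindle, and NUSAP1, a nucleolar and spindle protein, did not pass the filter. PRC1 was listed at 0.118 to 0.752 FPKM and NUSAP1 at 0.109 to 0.394, of which the lowest are at or below the value of 3 fragments per kilobase. A second protein-coding row, ENSG00000284946, overlaps PRC1 on the same strand and stood at 1.18 to 1.83 FPKM, and OIP5-AS1 overlaps NUSAP1 on the same strand with a mean of 4.09 FPKM. Whether reads of these genes were lost to overlapping rows was not tested. Of the 44 genes, 17 overlap another row, 5 of them on the same strand, and CENPA shares its strand with SLC35F6, at a mean of 8.85 FPKM. The sources used here do not say whether counting used the strand, so values of overlapping genes are uncertain.

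Libraries also differed within each group. Control replicate 2 was lower than the mean of control replicates 1 and 3 for 38 of 42 genes (90.5%, against 87.3% of all genes), with a median log2 difference of -0.61, against -0.60 for all genes. The differences spread from -1.90 for CKS2 to 0.61 for CENPE. In shZMAT2-1, replicate 2 was lower than replicates 1 and 3 for 24 of 42 genes (57.1%, against 56.7% of all genes), from -1.24 to 0.91. In shZMAT2-2, replicate 1 was lower than replicates 2 and 3 for 30 of 42 (71.4%, against 78.3% of all genes), from -0.65 to 0.33. In each case the library named is the one with the highest mitochondrial share of its group.

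These differences ranked the genes alike in groups that share no library. Spearman's rank correlation over the 42 genes was 0.90 between the control and shZMAT2-1 differences, 0.88 between control and shZMAT2-2, and 0.81 between the arms; over all tested genes the values were 0.77, 0.81 and 0.71. The points share library preparation, gene length and base composition, and genes are not independent replicates. The 10 genes lowest in control replicate 2 (CKS2, CCNB1, CDC20, BIRC5, CENPA, PTTG1, KIF2C, CDCA8, CDC25B and MAD2L1) had a median exon length of 2513.5 bases and a GC content of 49.8%. The 10 highest (FOXM1, CCNA2, MYBL2, TPX2, KIF11, INCENP, CENPF, HMMR, ANLN and CENPE) had 4666.5 bases and 41.5%. The rank correlation between exon length and the difference was 0.51 in the controls, 0.65 in shZMAT2-1 and 0.51 in shZMAT2-2, against 0.24, 0.41 and 0.23 over all genes; with GC content it was -0.33, -0.36 and -0.68, against -0.35, -0.53 and -0.54.

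**Figure D4:**
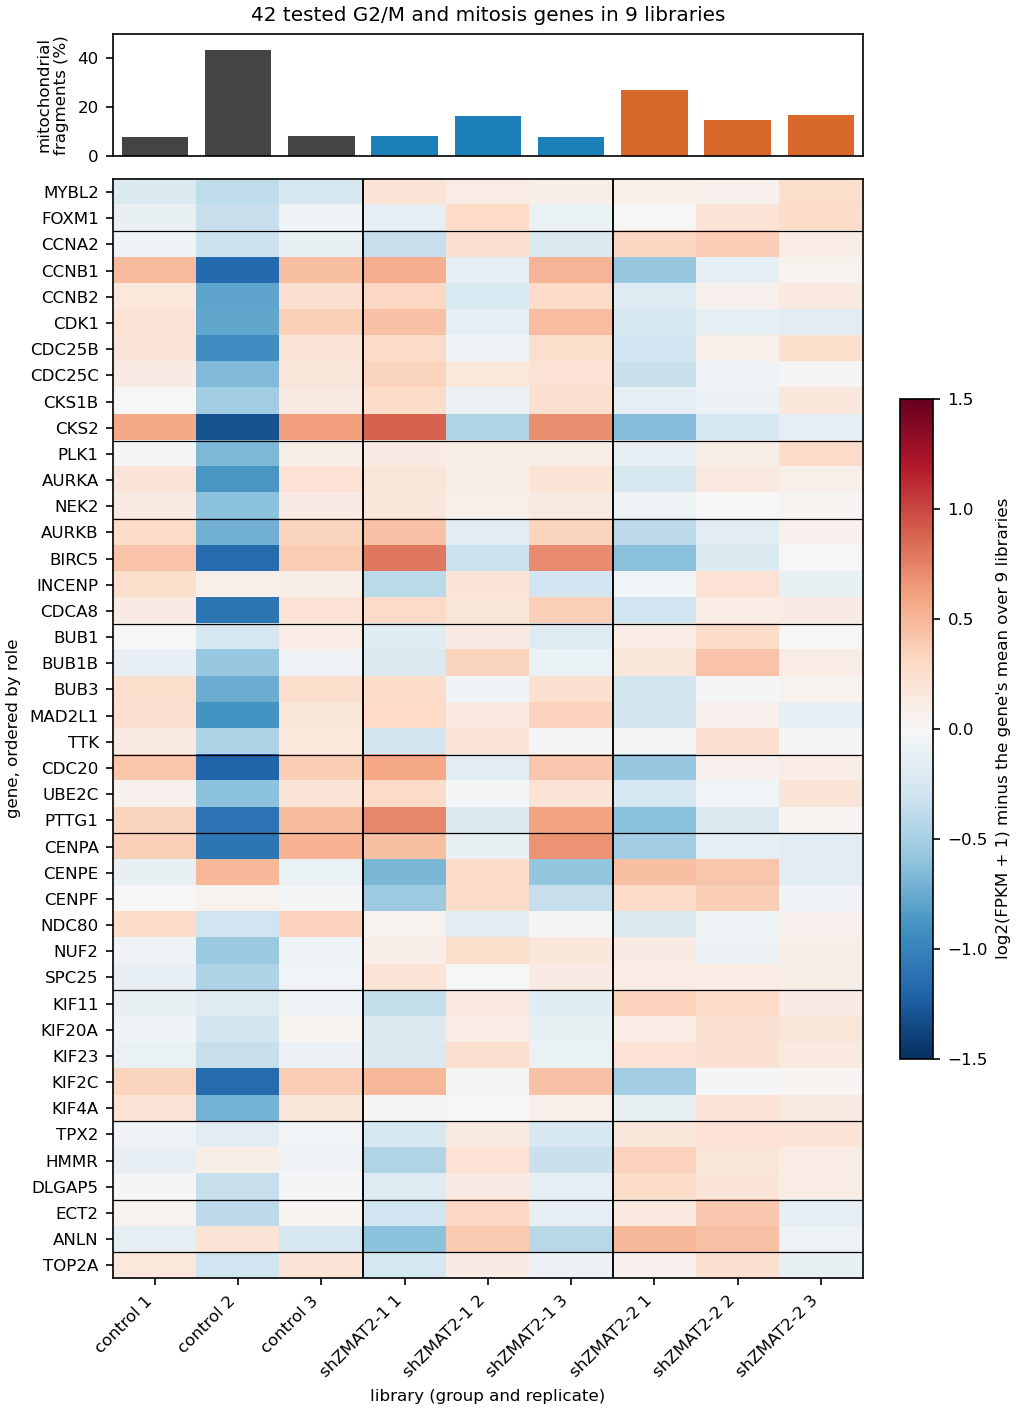
Log2(FPKM + 1) of the 42 tested genes minus each gene's mean over 9 libraries (colour), by gene (y axis, grouped by role) and library (x axis); bars above give the percent of fragments from mitochondrially encoded genes. Control replicate 2, with 43.2%, is low for 38 genes relative to the other controls, most for CKS2 and least for CENPE, which is high there.

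The difference between the arms followed the same order. No gene of the set was called between shZMAT2-2 and shZMAT2-1, where 0% of all genes were called and 4.14% had an unadjusted p under 0.05; of the set 0 did. CKS2 was lowest in shZMAT2-2 relative to shZMAT2-1, at -0.73, and CENPE highest, at 0.57. CKS2 measured 145, 39.04 and 152 FPKM in control replicates 1 to 3, 182, 71.5 and 159.7 in shZMAT2-1 and 61.8, 81.6 and 89.8 in shZMAT2-2, and was chosen for this description after its values were seen. It was low in the library of highest mitochondrial share in every group. Over the 42 genes, the rank correlation between this difference and that of control replicate 2 from the other controls was 0.93, against 0.81 over all genes. The shZMAT2-2 libraries held 14.5% to 27.0% mitochondrial fragments and 2 of the 3 shZMAT2-1 libraries 7.70% to 8.25%; the part of library composition in the difference between arms was not tested.

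**Figure D5:**
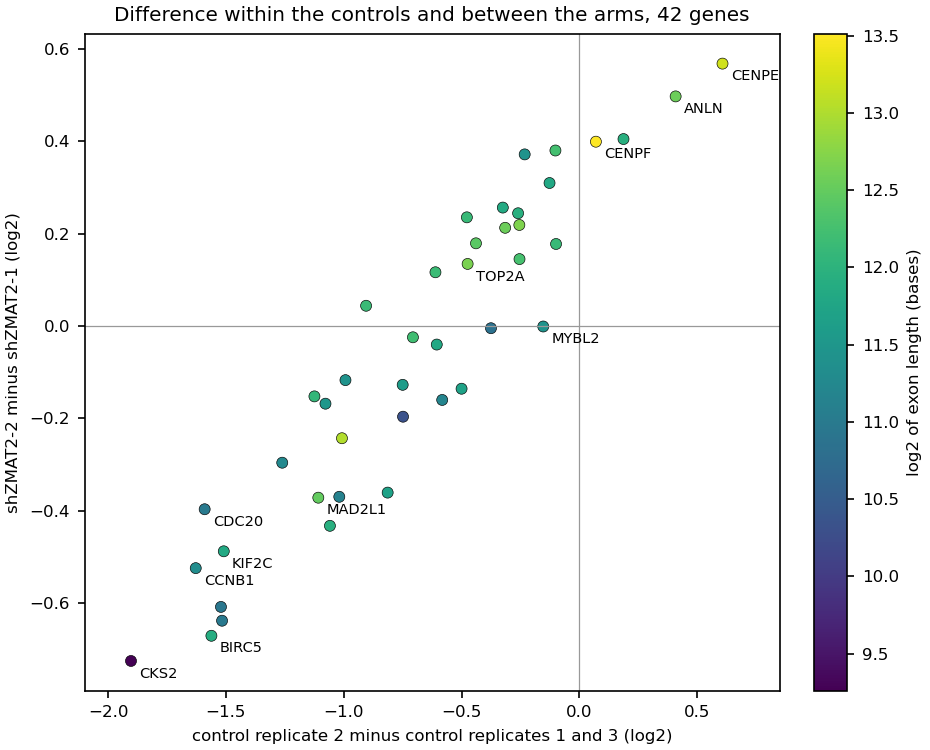
Each point is 1 of the 42 genes: log2 difference of control replicate 2 from control replicates 1 and 3 (x axis) against that of shZMAT2-2 from shZMAT2-1 (y axis), coloured by log2 exon length in bases. The axes share no library; points run from CKS2 (-1.90, -0.73) to CENPE (0.61, 0.57), with Spearman's rank correlation of 0.93.

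A fit without control replicate 2 and without shZMAT2-1 replicate 2 compared libraries of similar composition in shZMAT2-1. Controls 1 and 3 and shZMAT2-1 replicates 1 and 3 all held 7.70% to 8.28% mitochondrial fragments. Between them the set's median difference was 0.0077, and 0 of 42 genes were called, against 1.15% of all genes. In shZMAT2-2 against the same controls, 9 of 42 fell and none rose, while 30.6% of all genes were called in either direction. Estimates leaned low over all genes too: 33.2% were higher, with a median of -0.15, beside 18 of 42 and -0.11 for the set. The 9 were AURKB, BIRC5, CCNB1, CDK1, CENPA, CKS2, KIF2C, NDC80 and PTTG1, with CKS2 at -0.94 (adjusted p = 0.00350), CCNB1 at -0.68 (adjusted p = 0.0148), CDK1 at -0.47 (adjusted p = 0.0159) and AURKB at -0.47 (adjusted p = 0.0405) by limma. In that comparison the mitochondrial share was higher in all 3 shZMAT2-2 libraries than in both controls, so that the share and the arm cannot be told apart. Between the arms 22 of 42 were called, 11 in each direction, against 42.5% of all genes. For the mean of both arms 0 were called, against 4.09%.

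A further fit kept all 9 libraries and added a mitochondrial covariate. This covariate was each library's total mitochondrial FPKM on the log2 scale, and not the share of fragments given above. With it, MYBL2 was called in shZMAT2-1, where 3.73% of all genes were called. MYBL2 and SPC25 were called in shZMAT2-2, with 9.84% of all genes called. For the mean of both arms MYBL2 (0.41, adjusted p = 0.00865), SPC25 (0.30, adjusted p = 0.0325) and CDCA8 (0.35, adjusted p = 0.0487) were called by limma, with 9.75% of all genes. As shares of 42, these counts of 1, 2 and 3 lie below the share called over all genes. Between the arms 0 were called, as for all genes.

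Ratios between 2 genes of a library do not depend on that library's scaling. Of the 861 ratios between 2 of the 42 tested G2/M and mitosis genes, 36 (4.18%) had 6 knockdown libraries that did not overlap the 3 controls, against 8.25% of all 62882505 ratios between tested genes. These ratios were computed after the values were seen, and no test was made.

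Of the 41 ratios of NDC80, 13 were of this kind. In each, NDC80 relative to its partner was lower in the knockdown libraries than in the controls. Its product forms the kinetochore's NDC80 complex with those of NUF2 and SPC25. It measured 21.05, 13.8 and 22.1 FPKM in control replicates 1 to 3, 17.8, 15.3 and 17.4 in shZMAT2-1 and 14.7, 16.5 and 18.01 in shZMAT2-2. These levels overlapped. NDC80 over NUF2 was 2.81, 2.78 and 2.98 in control replicates 1 to 3, 2.11, 1.61 and 1.96 in shZMAT2-1 and 1.71, 2.27 and 2.15 in shZMAT2-2. NDC80 over SPC25 was 1.32, 1.11 and 1.31 in the controls, 0.881, 0.882 and 0.907 in shZMAT2-1 and 0.771, 0.871 and 0.969 in shZMAT2-2. The ratio of NUF2 to SPC25 overlapped between the groups.

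Of the 41 ratios of INCENP, 9 were of this kind, and again INCENP relative to its partner was lower in the knockdown libraries in each. INCENP over BUB1B was 1.04, 1.25 and 0.870 in the controls, 0.685, 0.719 and 0.691 in shZMAT2-1 and 0.669, 0.676 and 0.670 in shZMAT2-2. INCENP over AURKB, its partner in the chromosomal passenger complex, overlapped between the groups, since AURKB over INCENP ran from 2.25 to 4.69 in the controls and from 2.99 to 7.19 in the knockdown libraries. A ratio shows unequal change and not which gene changed.

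In the wider pathway no gene passed the test. Of 128 other G2/M and mitosis genes 126 were tested, and 0 were called in any of the 4 comparisons by limma. For the mean of both arms 101 of 126 were estimated higher, with a median of 0.11, beside 71.8% and 0.10 for all genes; the count was 117 in TPM, 68 scaled to nuclear genes, 59 by median of ratios, 56 under quantile normalization, and 41 with a median of -0.10 without control replicate 2. An unadjusted p under 0.05 was reached by 1 of the 126 in shZMAT2-1, 2 in shZMAT2-2, 1 for the mean and 3 between the arms. The gene of the mean comparison was SKA1, a kinetochore protein that tracks microtubules, with 13.7, 9.32 and 14.9 FPKM in control replicates 1 to 3, 16.9, 17.02 and 16.5 in shZMAT2-1 and 16.1, 17.3 and 18.5 in shZMAT2-2 and an estimate of 0.43 ± 0.17 (SE, adjusted p = 0.611 by limma). Its knockdown libraries all lay above the controls. For the same comparison the gene of smallest p among DREAM and G2 control genes was MASTL, the Greatwall kinase, at 0.34 ± 0.17 (SE), and among anaphase-promoting complex genes ANAPC13, a small subunit, at 0.38 ± 0.18 (SE). Among spindle and cytokinesis proteins it was CEP55, which recruits the abscission machinery, at 0.37 ± 0.17 (SE), and among cohesin and condensin genes SGO1, the protector of centromeric cohesion, at 0.15 ± 0.17 (SE).

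Genes of G1/S and DNA replication, which act earlier in the cycle, also had no call among 48 tested, with an unadjusted p under 0.05 for 1 gene in each arm, 1 for the mean and 0 between the arms. For the mean of both arms 46 of 48 were estimated higher, with a median of 0.21 against 0.17 for the G2/M and mitosis genes; 38 were higher scaled to nuclear genes, 34 by median of ratios, 32 under quantile normalization, and 15 without control replicate 2, with a median of -0.10. GINS2, a subunit of the replicative helicase, had the smallest p, with 14.1, 7.85 and 15.5 FPKM in control replicates 1 to 3, 17.8, 16.2 and 17.9 in shZMAT2-1 and 15.8, 17.2 and 18.6 in shZMAT2-2 and an estimate of 0.48 ± 0.21 (SE, adjusted p = 0.673 by limma). Its knockdown libraries all exceeded the controls.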

How the data were processed

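RNA of 9 Huh7 libraries in 3 groups of 3 was analysed from the deposited table of FPKM values, made by the authors from poly(A)-selected, strand-specific libraries, per the labels' protocols. The tools named per the submitters' processing notes are HISAT, featureCounts and DESeq2, with no versions. Genome build and strand setting are not given in the sources used here. Of the table's 27421 gene IDs, 25089 occur in GENCODE release 29, whose exon lengths were used. Depth was recovered from FPKM of 1598 single-exon genes, as whole fragments within 0.1. FPKM are relative to depth, so a library with a larger mitochondrial share gives lower FPKM to the other genes at the same RNA amount.

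The 11245 genes that reached 1 FPKM in 3 or more libraries were tested with limma 3.58.1 in R 4.3.3, with a trend, on log2(FPKM + 1), over all 9 libraries with group as the only term. Calls needed a p under 0.05, two-sided and adjusted by Benjamini-Hochberg over all tested genes. No counts are in the table, so no count test was run. The fitting script was tested on simulated data. Promoters came from RefSeq (GRCh38.p14). Summaries used pandas 2.3.3, scipy 1.17.1 and numpy 2.4.6 in Python 3.11.15, and figures matplotlib 3.10.9.

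The members, gene lists, motifs and rule for named genes were chosen with earlier results of these data known. The rule named MYBL2, FOXM1, CDK1, CCNB1, PLK1 and AURKB, every gene called or without overlap between knockdown and control, and the 6 of smallest p in each comparison, which gave 20 genes. Of each pathway list it named the gene of smallest p. Alternatives were a pseudocount of 0.1, other filters and scalings, a mitochondrial covariate, a replicate block and leaving out each library. Corrections for transcript length were added after seeing the data.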

Additional observations from a re-analysis of the deposited data

How the results depend on the processing

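Across 22 alternative settings, most values kept their direction and their side of the threshold, with these exceptions, for which the cause was not tested. The count of called genes of the set moved with the mitochondrial covariate to 1 in shZMAT2-1, 2 in shZMAT2-2 and 3 for the mean of both arms, and without control replicate 2 and shZMAT2-1 replicate 2 together to 9 in shZMAT2-2 and 22 between the arms. Leaving out any single library gave 0 in every comparison. Calls among the other pathway genes, 0 in the comparisons as reported, were 5 in shZMAT2-2 and 6 for the mean with the covariate, 31, 1 and 48 in shZMAT2-2, for the mean and between the arms without both libraries, and 0 to 1 in shZMAT2-2 without single libraries. The set's median in shZMAT2-1 was -0.0062 under quantile normalization and 0.0077 without both libraries, where it was -0.11 in shZMAT2-2 and -0.079 for the mean. Without single libraries the medians ran from -0.040 to 0.40, from -0.11 to 0.25 and from -0.072 to 0.31, the lowest always without control replicate 2. Between the arms the set's median of -0.032 was -0.26 in TPM and turned to 0.079 by median of ratios, 0.18 under quantile normalization, 0.11 scaled to nuclear genes (0.13 with length correction added), 0.16 with the covariate and 0.014 without shZMAT2-2 replicate 1. The count without overlap was 0 in TPM and 1 under quantile normalization. Scaled to nuclear genes, MYBL2 and SPC25 overlapped, while NDC80 did not and was lower in the knockdown libraries. TPM moved the median of all genes in shZMAT2-1 from 0.16 to 0.37, and median-of-ratios scaling to 0.0088. All-gene calls in shZMAT2-1, shZMAT2-2 and for the mean went from 9, 66 and 61 to 81, 199 and 210 under median-of-ratios scaling, to 0, 0 and 1 in TPM, and to 4, 15 and 25 at a filter of 5 FPKM. Without 1 library they ran from 0 to 26, 0 to 263 and 0 to 143, with the highest counts without control replicate 2.

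ZMAT2 in shZMAT2-1 lost its call in TPM (-1.17, adjusted p = 0.88 by limma) and with only the groups compared (-1.35, adjusted p = 0.29), and in 8 of the 9 fits without 1 library (every one except that without control replicate 2; adjusted p of 0.00951 to 0.237, values of -1.42 to -1.30). In shZMAT2-2 it was called with nuclear scaling (-0.80), the covariate (-0.74), without both libraries (-0.84) and without control replicate 2 (-0.84, adjusted p = 0.0165), and ran from -0.84 to -0.71 without single libraries. For the mean it lost its call in TPM (-0.98) and in 5 of the 9 fits without 1 library (control replicate 1 or 3, shZMAT2-1 replicate 3, shZMAT2-2 replicate 2 or 3; adjusted p up to 0.103), and ran from -1.13 to -1.004.

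For the mean of both arms, estimates changed sign as follows among the 20 named genes. Sign changes of the other genes are not listed. Over all 42 tested genes, 37 were higher as reported, 39 in TPM, 30 scaled to nuclear genes and 14 without both libraries. Under median-of-ratios scaling CDK1 was -0.022, CCNB1 -0.0045, AURKB -0.077, HMMR -0.090 and ANLN -0.032. Under quantile normalization CDK1 was -0.041, AURKB -0.099, HMMR -0.090 and ANLN -0.028. Scaled to nuclear genes, CDK1 was -0.0020, AURKB -0.056, HMMR -0.070 and ANLN -0.011, and with length correction added -0.0045, -0.065, -0.072 and -0.0087. Without both libraries CDK1 was -0.15, CCNB1 -0.30, AURKB -0.19, CDCA8 -0.016, CDC25C -0.073, MAD2L1 -0.11 and HMMR -0.0011. CENPF was 0.094 in TPM. Without single libraries CDK1 ran from -0.25 to 0.32, CCNB1 from -0.42 to 0.40, AURKB from -0.28 to 0.24, CDCA8 from -0.041 to 0.61, CDC25C from -0.092 to 0.33, MAD2L1 from -0.14 to 0.43, HMMR from -0.064 to 0.10, CENPE from -0.30 to 0.056, CENPF from -0.13 to 0.074 and ANLN from -0.050 to 0.24.

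Whether replicate numbers pair the libraries could not be settled, since deviations within a group of 3 are not independent. Deviations of same-numbered libraries correlated at -0.763 to 0.777, over 0.1 in 6 of 9 pairs. Same-numbered pairs of control and shZMAT2-1 gave 0.610, 0.777 and 0.693, while every negative value involved shZMAT2-2, which also had positive ones. With a replicate block the set still had 0 calls in each comparison, with medians of 0.25, 0.14, 0.17 and -0.032, and all-gene calls were 13, 52 and 58. ZMAT2 under the block was -1.35, -0.76 and -1.06. PRC1 and NUSAP1 entered only the fit without a filter, where 0 of 44 genes were called in each comparison; the lowest values of both were at or below 3 fragments per kilobase.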
